A study of Homo sapiens with 12 samples.

Results

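The Sprouty, SPRED, DUSP and ETV genes form a feedback and output group of the RAS-RAF-MEK-ERK pathway, and 10 of them (SPRY2, SPRY4, SPRED1, SPRED2, DUSP4, DUSP5, DUSP6, DUSP7, ETV4 and ETV5) were followed here by name on Illumina HumanHT-12 v4 bead arrays. They were read by 17 probes, of which 13 were detected on at least 3 of the 12 arrays, and this left 9 genes with a measurement among 11459 genes measured in all. The one without was DUSP7, whose single probe was not detected on any array. A probe counted as detected on an array when its detection p-value, which sets the probe against control beads without a target, was under 0.01.

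Growth factor receptors activate ERK through RAS, RAF and MEK, and active ERK switches on genes whose products then restrain the same pathway. Sprouty and SPRED proteins act upstream, on RAS and RAF, and the dual-specificity phosphatases (DUSP) remove the activating phosphates from ERK and related kinases. ETV4 and ETV5 are ETS transcription factors whose genes are held down by the repressor Capicua (CIC) until ERK inactivates it. For these reasons mRNA levels of the group are often read as an index of ERK activity, although the arrays measure mRNA and not phosphorylated ERK.

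RNA came from 2 established lines of breast cancer cells, BT-549 and MDA-MB-468, each transfected with a control siRNA (siControl) or an siRNA against PRKCD (siPRKCD), the gene of protein kinase Cδ (PKCδ). Each of the 4 groups had 3 arrays. The general transfection protocol of the study gives 40 nM siRNA for 72 h, and a legend of the study calls its array replicates experiments, without more on how the cultures were kept apart. The p-values rest on the spread between these replicates. PKCδ siRNA induces apoptosis in such cells according to the study, and in RNA from a whole culture fewer cells that express a gene and less RNA per cell cannot be told apart.

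PRKCD itself was lower with siPRKCD by 1.72 on the log2 scale in MDA-MB-468 cells (from a mean log2 signal of 9.03 to 7.32) and by 0.87 in BT-549 cells (from 7.73 to 6.86). On the BT-549 siPRKCD arrays its probe was detected on 1 of 3, with a mean under their detection limits of 6.92 to 6.99, and with the neqc background correction the BT-549 log2 fold change was -1.96. Fewer probes were detected on the siPRKCD arrays of BT-549 cells (15616 to 16595) than on its siControl arrays (16640 to 17263), whereas the ranges overlapped in MDA-MB-468 cells (16562 to 17724 and 16036 to 17604). Of 8 epithelial markers, all were detected in MDA-MB-468 cells and only CDH1 in BT-549 cells. Of 8 mesenchymal markers, 7 were detected in BT-549 cells, with the FN1 probe undetected, and 2, VIM and CDH2, in MDA-MB-468 cells. Of 7 immune and endothelial markers with a probe, CD68 was the only one detected on all arrays. The summed signal of the mesenchymal markers went from 39912 to 42160 with siControl to 30626 to 33053 with siPRKCD in BT-549 cells, and that of the epithelial markers from 21028 to 23747 to 16908 to 20547 in MDA-MB-468 cells. Their part in the results below was not tested.

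Down regulation of PRKCD was followed by higher mRNA of feedback genes in both lines. With siPRKCD, 4 of the 9 measured genes rose in MDA-MB-468 cells (DUSP4, DUSP5, DUSP6 and ETV4) and 7 of 9 rose in BT-549 cells (SPRY2, SPRY4, SPRED1, DUSP4, DUSP5, DUSP6 and ETV5), and none fell. Among all genes tested, 12.4% were called higher in MDA-MB-468 cells and 11.6% in BT-549 cells. A call means that the limma p, adjusted over the 11459 genes by Benjamini-Hochberg, was under 0.05 in a model fitted with 1 mean per group over the 12 arrays. The median log2 fold change of the 9 genes was 0.37 and 0.87, where that of all genes was 0.00 and -0.01. In MDA-MB-468 cells this median was the value of DUSP4 itself. The DUSP4 probe passed the detection filter only through the siPRKCD arrays of that line. Neither its call nor this median is therefore support for a rise of the group there. The 2 counts of calls were not tested against each other. DUSP4 and ETV4 were not detected with siControl in BT-549 cells. With both at their lower bound the BT-549 median was again 0.87. It could not have moved, since both genes already lay below it. The BT-549 median was the value of SPRY2 itself, which came to 0.55 when BT-549 siControl replicate 3 was left out. A lower bound sets the siControl arrays at the dimmest signal that counted as detected on each of them.

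**Figure D1:**
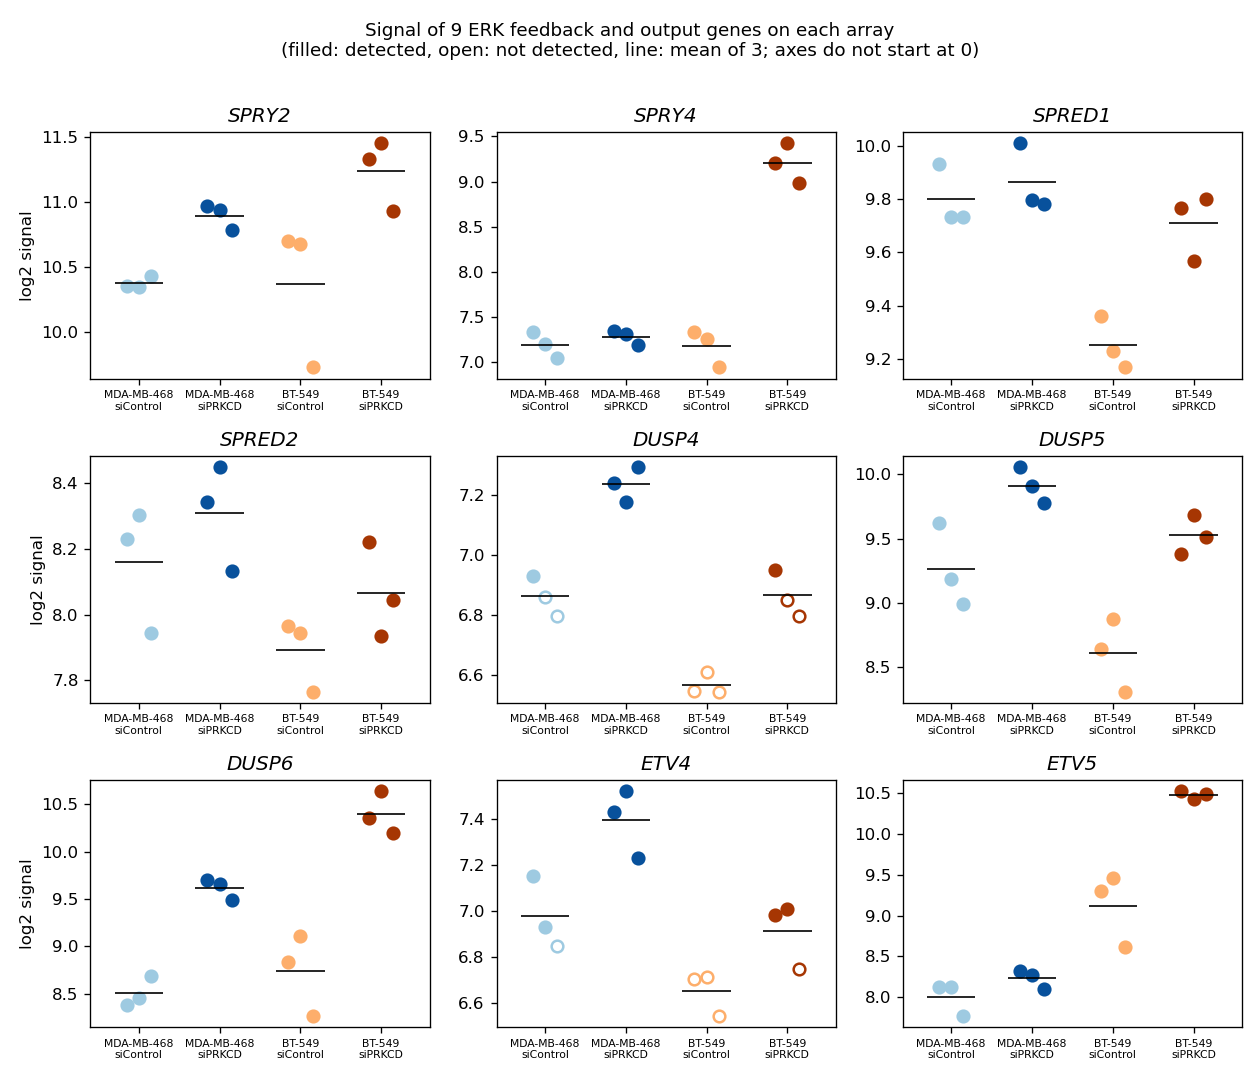
Log2 signal (vertical axes, quantile-normalized, not starting at 0) of the 9 measured genes on each of the 12 arrays, 1 panel per gene and 1 column of 3 points per group, in replicate order from left to right. Filled points are detected, open points are not, and lines are means of 3. The SPRY4 panel shows the 3 BT-549 siPRKCD arrays at 8.99 to 9.43 and the other 9 arrays at 6.95 to 7.35.

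The Sprouty genes SPRY2 and SPRY4 encode inhibitors that are recruited to the membrane after receptor stimulation and block the step from receptor to RAS and RAF. SPRY4 gave log2 signals of 7.33, 7.21 and 7.05 on the siControl arrays of MDA-MB-468 cells and 7.35, 7.31 and 7.19 on its siPRKCD arrays. In BT-549 cells it gave 7.33, 7.26 and 6.95 with siControl and 9.20, 9.43 and 8.99 with siPRKCD. The MDA-MB-468 groups overlapped, while all 3 BT-549 siPRKCD arrays were above every other array of the series. SPRY4 rose 4.08-fold in BT-549 cells (log2 fold change 2.03, SE 0.13, where SE is the standard error on a log2 scale, limma adjusted p = 1.3e-07), which was the 4th highest log2 fold change of the 11459 genes there. In MDA-MB-468 cells the log2 fold change was 0.09, with a 95% interval of -0.18 to 0.36 (limma adjusted p = 0.67).

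SPRY2 signals were 10.35, 10.34 and 10.43 with siControl and 10.97, 10.94 and 10.78 with siPRKCD in MDA-MB-468 cells. In BT-549 cells they were 10.70, 10.67 and 9.73 with siControl and 11.32, 11.45 and 10.93 with siPRKCD. In each line all siPRKCD arrays were above all siControl arrays, and siControl replicate 3 of BT-549 cells lay apart from the other 2. SPRY2 rose 1.82-fold in BT-549 cells (log2 fold change 0.87, SE 0.20, limma adjusted p = 0.0041). Its log2 fold change of 0.52 in MDA-MB-468 cells (95% interval 0.10 to 0.94) missed the threshold at a limma adjusted p of 0.066. Without BT-549 siControl replicate 3, with which the SPRY2 values of its group had an SD of 0.55, the same MDA-MB-468 value of 0.52 passed (limma adjusted p = 0.0047) and the BT-549 value came to 0.55. Replicate 3 was the lowest of the 3 BT-549 siControl arrays for 9 of the 9 genes, against 38.6% of all genes.

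SPRED1 and SPRED2 encode Sprouty-related proteins that bring the RAS inactivator neurofibromin to the membrane. SPRED1 signals were 9.93, 9.73 and 9.73 with siControl and 10.01, 9.80 and 9.78 with siPRKCD in MDA-MB-468 cells, ranges that overlapped. In BT-549 cells they were 9.36, 9.23 and 9.17 with siControl and 9.77, 9.57 and 9.80 with siPRKCD, with no overlap. SPRED1 rose by 0.46 on the log2 scale in BT-549 cells (SE 0.10, limma adjusted p = 0.0034), and after median centring of the arrays instead of quantile normalization the rise of 0.35 no longer passed (limma adjusted p = 0.17). In MDA-MB-468 cells the difference was 0.06, with a 95% interval of -0.15 to 0.28. SPRED2 passed in neither line. Its signals ran from 7.94 to 8.45 on the MDA-MB-468 arrays and from 7.76 to 8.22 on the BT-549 arrays, the groups overlapped in both lines, and the 95% intervals of the log2 fold change were -0.10 to 0.40 and -0.08 to 0.42.

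DUSP6 is a cytoplasmic phosphatase selective for ERK, and it had the highest log2 fold change of the 9 genes in MDA-MB-468 cells. There its signals were 8.38, 8.45 and 8.69 with siControl and 9.71, 9.66 and 9.49 with siPRKCD. In BT-549 cells they were 8.83, 9.11 and 8.27 with siControl and 10.35, 10.64 and 10.19 with siPRKCD. The groups did not overlap in either line. DUSP6 rose 2.16-fold in MDA-MB-468 cells (log2 fold change 1.11, SE 0.17, limma adjusted p = 0.00021) and 3.15-fold in BT-549 cells (log2 fold change 1.66, SE 0.17, limma adjusted p = 7.7e-06). These were the 34th and 7th highest log2 fold changes among all genes.

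DUSP5, a nuclear phosphatase that also acts on ERK, gave 9.62, 9.19 and 8.99 with siControl and 10.05, 9.90 and 9.77 with siPRKCD in MDA-MB-468 cells. In BT-549 cells it gave 8.64, 8.87 and 8.31 with siControl and 9.38, 9.69 and 9.51 with siPRKCD. No siPRKCD array was as low as any siControl array of the same line, and siControl replicate 1 was the highest of its group in MDA-MB-468 cells. DUSP5 rose 1.56-fold in MDA-MB-468 cells (SE 0.16, limma adjusted p = 0.0067) and 1.89-fold in BT-549 cells (limma adjusted p = 0.00054). With median centring the MDA-MB-468 value of 0.67 on the log2 scale did not pass (limma adjusted p = 0.055).

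DUSP4, a nuclear phosphatase of ERK and the stress-activated kinases, lay close to the detection limit. Its signals in MDA-MB-468 cells were 6.93, 6.86 and 6.80 with siControl, of which 1 was detected, and 7.24, 7.18 and 7.29 with siPRKCD, all detected. It was called higher there (log2 fold change 0.37, SE 0.08, limma adjusted p = 0.0038), but the siControl mean of 6.86 was under the detection limits, and with neqc the log2 fold change was 1.02. The probe passed the detection filter only through the 3 siPRKCD arrays of this line, where it was highest, so this call is no support for a rise of the group. Without the filter 4 of 10 genes were called in MDA-MB-468 cells and 7 of 10 in BT-549 cells, all higher. Of all 20046 genes in that fit, 1322 and 1252 were called higher. In BT-549 cells the signals were 6.55, 6.61 and 6.55 with siControl, none of them detected, and 6.95, 6.85 and 6.80 with siPRKCD, with 1 detected. The groups did not overlap and the gene was called (limma adjusted p = 0.015), but the siPRKCD mean of 6.87 did not exceed the detection limit of the siControl arrays, so no fold is given. The BT-549 call was lost without siControl replicate 1 (adjusted p = 0.054), without siPRKCD replicate 1 (adjusted p = 0.066) and with median centring (adjusted p = 0.091). DUSP7, the cytoplasmic relative of DUSP6, had mean log2 signals between 6.62 and 6.66 in the 4 groups, none detected, and has no test.

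ETV5 and its relative ETV4 are on the output side of the pathway. ETV5 signals were 8.12, 8.12 and 7.77 with siControl and 8.32, 8.26 and 8.09 with siPRKCD in MDA-MB-468 cells, where the groups overlapped. In BT-549 cells they were 9.30, 9.46 and 8.61 with siControl and 10.53, 10.44 and 10.49 with siPRKCD, with no overlap. ETV5 rose 2.57-fold in BT-549 cells (log2 fold change 1.36, SE 0.17, limma adjusted p = 3.2e-05). In MDA-MB-468 cells its log2 fold change was 0.23, with a 95% interval of -0.13 to 0.58 (limma adjusted p = 0.36).

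ETV4 was called in MDA-MB-468 cells and missed the threshold in BT-549 cells. Its signals in the former were 7.15, 6.93 and 6.85 with siControl, of which 2 were detected, and 7.43, 7.52 and 7.23 with siPRKCD, all detected. ETV4 rose 1.34-fold (log2 fold change 0.42, SE 0.11, limma adjusted p = 0.011), and without siPRKCD replicate 2 the call was lost (adjusted p = 0.057). In BT-549 cells the signals were 6.70, 6.71 and 6.54 with siControl, none detected, and 6.98, 7.01 and 6.75 with siPRKCD, with 2 detected. The groups did not overlap, and the limma adjusted p of 0.096 missed the threshold. It passed without siPRKCD replicate 3 (adjusted p = 0.049), with the neqc background correction (adjusted p = 0.048) and with the mean of its 2 probes (adjusted p = 0.018). The second of these probes passed the detection filter only through siPRKCD arrays, so the pass of the mean is no support for a rise.

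**Figure D2:**
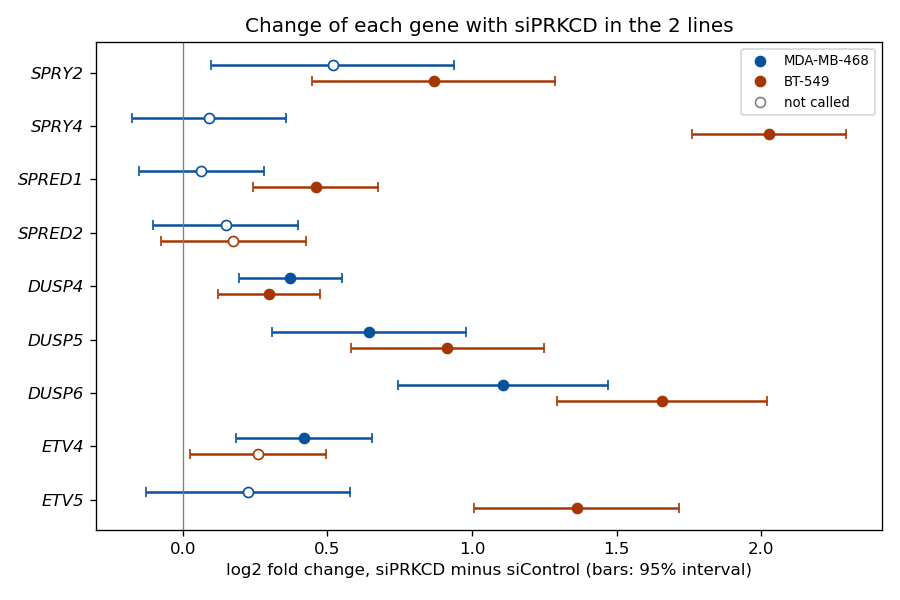
Log2 fold change with siPRKCD (horizontal axis) for the 9 genes in MDA-MB-468 (blue) and BT-549 cells (brown), with 95% intervals from limma. Filled points passed the adjusted threshold, 4 of 9 genes for the blue points and 7 of 9 for the brown ones. For DUSP4 and ETV4 in BT-549 cells the siControl arrays were below detection.

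Whether the change itself differed between the lines was tested as the difference of the responses, BT-549 minus MDA-MB-468. It was called for 2 of the 9 genes, SPRY4 and ETV5, where 10.8% of all genes were called in either direction. SPRY4 differed by 1.94 on the log2 scale (SE 0.18, limma adjusted p = 7.1e-06) and ETV5 by 1.14 (SE 0.24, limma adjusted p = 0.0059). With median centring the SPRY4 difference passed and the ETV5 difference of 1.04 did not (adjusted p = 0.064). DUSP6 differed by 0.55 (95% interval 0.03 to 1.06, limma adjusted p = 0.17), from 0.31 to 0.73 when 1 array was left out, and by 0.54 with the mean of its 2 probes, which passed (adjusted p = 0.035). The second DUSP6 probe was undetected on all siControl arrays. It passed the detection filter only through siPRKCD arrays, so the pass of the mean is no support for a difference. SPRED1 differed by 0.39 (0.09 to 0.70, limma adjusted p = 0.097) and did not pass. For SPRY2 the interval of the difference was -0.24 to 0.94, for DUSP5 -0.20 to 0.74 and for SPRED2 -0.33 to 0.38. DUSP4 and ETV4, undetected with siControl in BT-549 cells, were not called and have no interval for the difference. The measured fall of PRKCD was smaller in BT-549 cells by 0.84 (SE 0.16, limma adjusted p = 0.0032), where its siPRKCD mean was under the detection limits, and this difference was lost with neqc (0.58, adjusted p = 0.30) and with median centring (0.76, adjusted p = 0.060).

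With control siRNA the lines already differed in several of these genes, without a common direction. ETV5 was higher in BT-549 than in MDA-MB-468 cells, and SPRED1, DUSP4, DUSP5 and ETV4 were lower, so that 1 of 9 genes was higher (32.6% of all genes) and 4 of 9 were lower (29.7% of all genes). This comparison uses the same siControl arrays as the responses, so no relation between them is read. ETV5 was 2.18-fold higher in BT-549 cells (SE 0.17, limma adjusted p = 2.0e-05), and SPRED1 was 1.46-fold lower (limma adjusted p = 0.00020). DUSP5 was 1.58-fold lower in BT-549 cells (limma adjusted p = 0.0018). In none of these 3 genes did the siControl arrays of the lines overlap. ETV4 was at least 1.05-fold lower (means 6.98 and 6.65, limma adjusted p = 0.018), a call lost without MDA-MB-468 siControl replicate 1 (adjusted p = 0.10) or BT-549 siControl replicate 3 (adjusted p = 0.073). DUSP4 was called lower (means 6.86 and 6.57, limma adjusted p = 0.0058), with no fold given since the MDA-MB-468 mean was also under the detection limit.

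The remaining 4 genes did not pass between the lines. The log2 difference, BT-549 minus MDA-MB-468, had a 95% interval of -0.43 to 0.41 for SPRY2, -0.28 to 0.25 for SPRY4, -0.52 to -0.02 for SPRED2 and -0.13 to 0.59 for DUSP6. SPRED2 was near the threshold (limma adjusted p = 0.058) and passed without MDA-MB-468 siControl replicate 3 (adjusted p = 0.012), without siPRKCD replicate 3 of that line (adjusted p = 0.046) or with replicate number as a block within MDA-MB-468 (adjusted p = 0.023). DUSP6 was called higher in BT-549 cells only when BT-549 siControl replicate 3 was left out (log2 difference 0.46, adjusted p = 0.011), and SPRY2 then had a difference of 0.31.

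Of the 9 measured genes, 5 had more than 1 probe, and a fit over all 19439 kept probes showed where these differed. The second SPRY4 probe was detected on the 3 BT-549 siPRKCD arrays alone, at 7.33, 7.19 and 7.29, against 6.52 to 6.84 on the other 9 arrays. It was at least 1.29-fold higher there than with siControl (limma adjusted p = 0.00023), but passed the detection filter only through those 3 arrays, so it had to differ and is no support for the first probe. The other 2 SPRY4 probes were detected on no array, with group means from 6.58 to 6.78. The second DUSP6 probe was undetected on all siControl arrays and rose by at least 1.09-fold in MDA-MB-468 cells (limma adjusted p = 0.024) and at least 1.60-fold in BT-549 cells (adjusted p = 2.5e-05). It passed the detection filter only through siPRKCD arrays, so its calls are no support for the first probe, and with siControl undetected in both lines the difference of its responses is not given.

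The second ETV5 probe rose 1.75-fold in BT-549 cells (limma adjusted p = 6.1e-05) and was called in the difference between the lines (0.69 on the log2 scale, adjusted p = 0.0068). Its log2 fold change in MDA-MB-468 cells was 0.12 (adjusted p = 0.46). There its siControl mean of 6.90, with 1 of 3 arrays detected, was at the detection limit. A change in that line is therefore understated, and the difference between the lines is limited in the same way. The second ETV4 probe was called in both lines, with a rise of 1.29-fold in MDA-MB-468 cells (limma adjusted p = 0.0077) and of at least 1.07-fold in BT-549 cells (adjusted p = 0.0082), where the first probe was not called. It was detected on 1 siControl array and passed the detection filter only through siPRKCD arrays. Its calls are therefore no support for the first ETV4 probe. The second DUSP4 probe was detected on no array, and its group means of 6.58 to 6.70 give no reading beside the called probe.

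**Figure D3:**
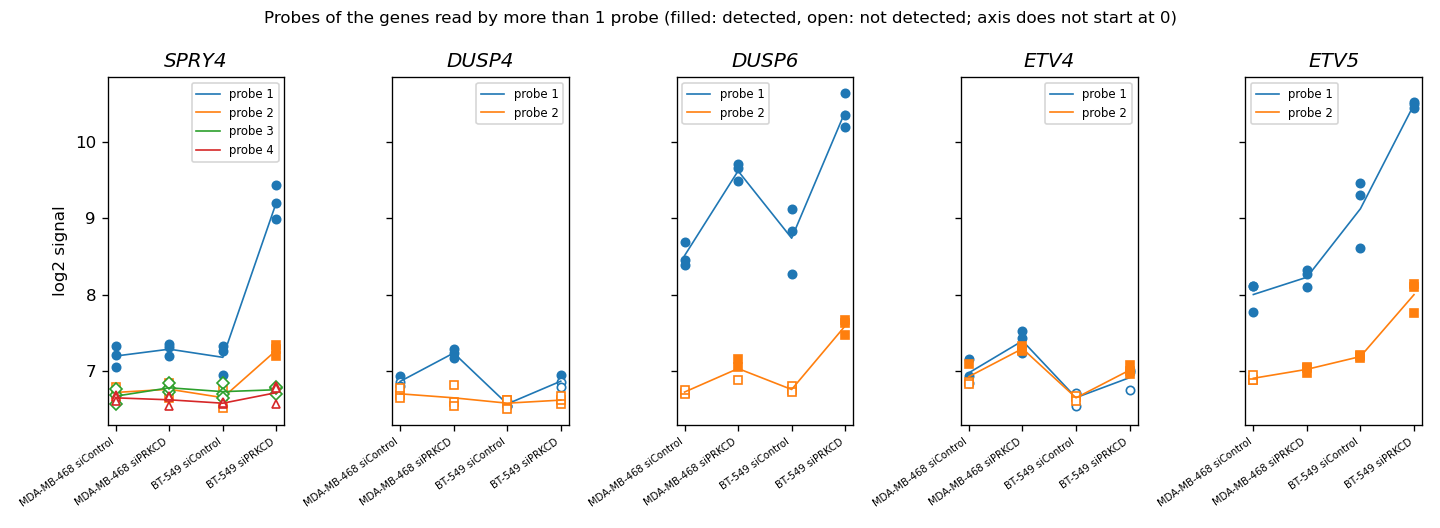
Log2 signal (vertical axis, not starting at 0) of every probe of the 5 genes with more than 1 probe, by group (horizontal axis), with lines joining group means. Filled symbols are detected and open symbols are not. Levels of different probes are not comparable, and the first and second probes of SPRY4, DUSP6 and ETV5 each have their highest group mean on the BT-549 siPRKCD arrays.

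Promoter sequence was taken from RefSeq (GRCh38.p14), with 9 start sites used for 6 of the 10 genes and none for DUSP4, DUSP5, ETV4 or ETV5. Start sites on 1 chromosome were left out for the 10 genes but kept in the count over all genes. A gene on that chromosome could therefore not be matched. The 250 bases before each start were searched on both strands for letters of factors that act on these genes. TGAATGAA, bound by CIC, CCGGAAGT, bound by ETS factors such as ETV4 and ETV5, and TGANTCA, bound by AP-1, occurred before none of the 9 start sites, and before 1.40%, 3.42% and 6.57% of 35116 start sites of all genes. Their shorter forms, TGAATG and CCGGAA, which lie within the first and the second motif, were searched after that and are before 9.92% and 14.5% of all start sites. TGAATG occurred before the DUSP6 start and 1 of 2 SPRED2 starts, and CCGGAA before 1 of 3 SPRY2 starts. The 150 bases before the start are shown for SPRY4, which rose in BT-549 cells and was not called in MDA-MB-468 cells, for DUSP6, called in both lines, and for SPRY2, with TGAATG (DUSP6) and CCGGAA (SPRY2) in capitals and no capitals in SPRY4. A match describes these letters and is not a bound site. The windows, all on the minus strand and written 5′ to 3′, are chr5:142324248-142324397 for SPRY4, chr12:89352502-89352651 for DUSP6 and chr13:80341127-80341276 for SPRY2.
SPRY4: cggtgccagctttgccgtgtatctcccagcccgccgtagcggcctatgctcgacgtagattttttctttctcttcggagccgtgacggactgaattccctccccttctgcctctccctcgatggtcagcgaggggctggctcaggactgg
DUSP6: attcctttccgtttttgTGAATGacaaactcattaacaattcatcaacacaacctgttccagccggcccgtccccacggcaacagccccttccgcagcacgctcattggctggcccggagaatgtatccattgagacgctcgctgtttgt
SPRY2: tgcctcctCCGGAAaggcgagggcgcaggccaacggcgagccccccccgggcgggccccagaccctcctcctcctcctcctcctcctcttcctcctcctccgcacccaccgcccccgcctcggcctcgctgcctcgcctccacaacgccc

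Relatives from the same gene families were listed beside the 10 genes. Of 10 listed family relatives (SPRY1, SPRY3, SPRED3, DUSP1, DUSP2, DUSP8, DUSP9, DUSP10, DUSP16 and ETV1), 5 were measured. DUSP2, a nuclear ERK phosphatase, was the one called, higher in MDA-MB-468 cells by 0.37 on the log2 scale (limma adjusted p = 0.024). That call was lost without MDA-MB-468 siControl replicate 3 (adjusted p = 0.11), without siPRKCD replicate 2 (adjusted p = 0.11) and with median centring (adjusted p = 0.068), and none of the 5 was called in BT-549 cells by limma, with 0 at an unadjusted p under 0.05 (-0.02 for DUSP2). SPRY1 had log2 fold changes of 0.29 and 0.22, passed in MDA-MB-468 cells without siPRKCD replicate 3 (0.47, adjusted p = 0.042) and ranged from 0.01 to 0.33 in BT-549 cells when 1 array was left out. DUSP8 had 0.08 and 0.19. The stress-induced phosphatase gene DUSP1 had -0.37 and -0.32 (limma adjusted p = 0.21 and 0.29). In MDA-MB-468 cells DUSP1 passed without siControl replicate 3 (-0.71, adjusted p = 0.0020), and with replicate number as a block within that line its values passed in both lines (adjusted p = 0.016 and 0.036).

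Other genes of ERK output were listed as a comparison, and 19 of 20 were measured. In MDA-MB-468 cells 4 were higher and 5 lower, with a median log2 fold change of 0.12, and in BT-549 cells 11 were higher and 2 lower, with a median of 0.48. Of all genes, 12.4% and 11.6% were called higher and 13.7% and 14.9% lower in the respective lines. The difference between the lines, BT-549 minus MDA-MB-468, was called for 8 of the 19, against 10.8% of all genes, and was positive for 7. A positive difference is not always a stronger rise in BT-549 cells. For EGR1 and FOS, given below, it stood beside a called fall in MDA-MB-468 cells and no call in BT-549 cells. The negative difference was that of EPHA4, a receptor tyrosine kinase gene named after its values were seen (-0.88, limma adjusted p = 0.0022). EPHA4 had 0.24 in MDA-MB-468 cells and a log2 fold change of -0.64, called, in BT-549 cells. The uridine phosphorylase gene UPP1, PHLDA1, the AP-1 subunit gene FOSL1 and the phosphate transporter gene SLC20A1 rose in both lines. Their log2 fold changes in MDA-MB-468 cells were 0.99, 0.99, 0.67 and 0.59, and in BT-549 cells 1.51, 1.39, 1.05 and 0.68. HBEGF was called lower in both lines (-0.44 and -0.45, limma adjusted p = 0.021 and 0.018). PLAUR was called lower in MDA-MB-468 cells (-0.51, adjusted p = 0.035). HBEGF, PLAUR and ERRFI1 were named after their values were seen, and no alternative fits are given for them. CCND1, the gene of cyclin D1, was like SPRY4 and ETV5 called in BT-549 cells and not in MDA-MB-468 cells, with 0.09 in MDA-MB-468 cells and 1.43 in BT-549 cells and a called difference of 1.34 (SE 0.20, limma adjusted p = 0.00054). The immediate early genes EGR1 (-1.10) and FOS (-0.81) fell in MDA-MB-468 cells while DUSP6 rose there, and in BT-549 cells they had -0.04 and 0.44, both not called. These 2 were named after their values were seen. The FOS call in MDA-MB-468 cells was lost without siControl replicate 1 (-0.52, adjusted p = 0.098) or 2 (0.060) or siPRKCD replicate 2 (0.073) or 3 (0.052) of that line. It was also lost with median centring (0.068) and with no detection filter (0.051).

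**Figure D4:**
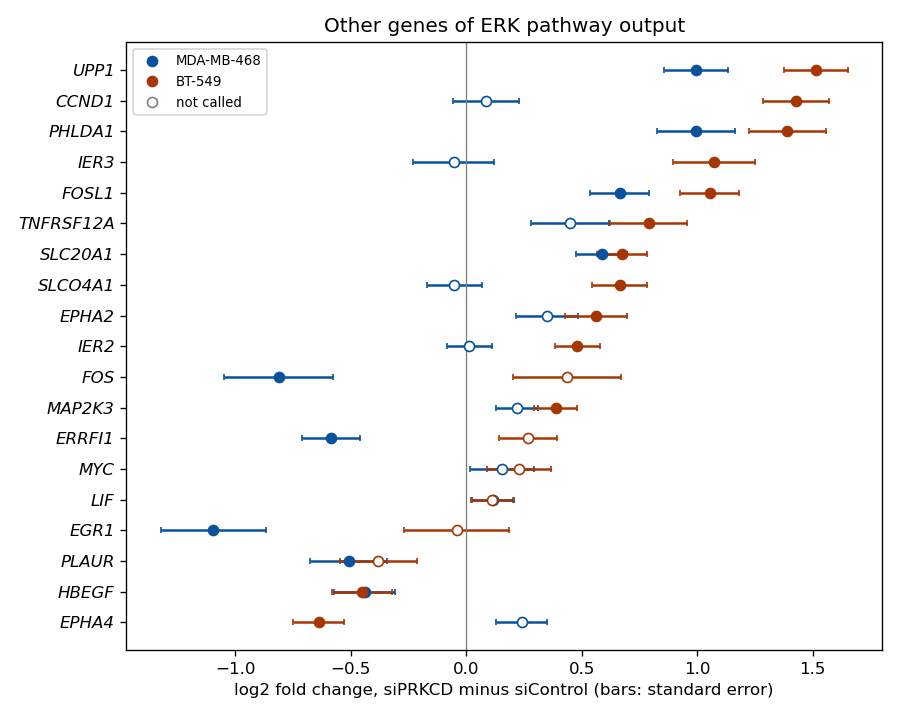
Log2 fold change with siPRKCD (horizontal axis, bars are standard errors) of the 19 other measured ERK output genes in MDA-MB-468 (blue) and BT-549 cells (brown), ordered by the BT-549 value. Filled points passed the adjusted threshold, 4 higher and 5 lower in MDA-MB-468 cells and 11 higher and 2 lower in BT-549 cells.

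Genes of the kinases and regulators of the pathway were also listed. Of 15, 11 were measured, with 1 called higher and 2 lower in MDA-MB-468 cells and 2 called lower in BT-549 cells, near the shares of all genes given above. MAP2K1, which encodes the ERK kinase MEK1, was lower in both lines (log2 fold changes -0.47 and -0.34, limma adjusted p = 0.0052 and 0.030). MAP2K1 lost both calls with median centring (adjusted p = 0.11 and 0.097). The BT-549 call was also lost with neqc (adjusted p = 0.067) and without siControl replicate 2 or 3 or siPRKCD replicate 1 or 3 (adjusted p from 0.055 to 0.14). MAPK3, the gene of ERK1, fell by 0.83 in BT-549 cells (limma adjusted p = 0.0010) and had -0.23 in MDA-MB-468 cells (adjusted p = 0.31). In MDA-MB-468 cells the ubiquitin ligase gene CBL fell by 0.51 (limma adjusted p = 0.010) and COP1, whose product marks ETV proteins for degradation, rose by 0.30 (adjusted p = 0.027). The CBL call was lost without siPRKCD replicate 2 (adjusted p = 0.060) and with median centring (adjusted p = 0.092), and the COP1 call without siControl replicate 1 or 3 or any siPRKCD replicate (adjusted p from 0.057 to 0.080), with neqc (0.089) and with median centring (0.21). CIC had log2 fold changes of 0.05 (MDA-MB-468) and -0.22 (BT-549), the adaptor gene GRB2 had 0.31 and 0.15 and MAP2K2, which encodes MEK2, had 0.10 and -0.28, all not called.

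Genes with the pattern most like SPRY4 and DUSP6 were ranked by Pearson's r over the 12 arrays after the mean of each line was subtracted, as a description over arrays that share the same siRNA groups. For SPRY4 they were MAP3K5 (r = 0.987), which encodes the stress kinase ASK1, the glutamate transporter gene SLC1A3 (r = 0.985) and PRDM8 (r = 0.984). Their log2 fold changes in BT-549 cells were 1.40, 1.47 and 1.14, and in MDA-MB-468 cells 0.14, 0.09 and 0.02. ETV5 ranked 24th (r = 0.947) and DUSP6 259th (r = 0.838). For DUSP6 they were TMX3 (r = 0.980), which encodes a thioredoxin-related protein of the endoplasmic reticulum, RAB3IP (r = 0.974) and MAPK6 (r = 0.964), the gene of the atypical kinase ERK3. Their log2 fold changes were 0.50, 0.55 and 0.37 in MDA-MB-468 cells and 0.60, 0.94 and 0.62 in BT-549 cells. SPRY2 ranked 42nd (r = 0.930), DUSP5 69th (r = 0.918) and SPRY4 452nd.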

How the data were processed

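Intensities of bead signals without normalization, detection p-values, and intensities after their own normalization were deposited by the authors; the labels name Illumina HumanHT-12 v4 arrays. The deposited intensities were set to common quantiles across 12 arrays without background correction and put on a log2 scale; the largest gap to the authors' own normalized values was 0.0083 (log2). Of 47323 probes, 30113 had 1 gene symbol in the platform annotation, 8 several and 17202 none. Probes detected (p under 0.01) on at least 3 arrays were kept (19439), and the brightest of them on average stood for its gene. A model of 4 group means was fitted in R 4.3.3 with limma 3.58.1 (lmFit, eBayes; residual degrees of freedom 8, prior 7.64), with Benjamini-Hochberg adjustment over 11459 genes, and was tested on simulated data. No background subtraction means that folds of dim probes are understated. The number of arrays limits the precision. Within groups arrays correlated at 0.990 to 0.996.

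The 10 genes and all lists were chosen with earlier results of these data known, so counts over a list carry no test. Named beside them were up to 4 genes per list and line with the smallest adjusted p, PRKCD, and the 3 genes most like SPRY4 and DUSP6. In MDA-MB-468 cells arrays with the same replicate number deviated together (r = 0.367, 0.287 and 0.492), in BT-549 cells not in all pairs (0.281, 0.0099 and 0.046), so a block within MDA-MB-468 was added after seeing the data. Alternatives were median centring, neqc, the authors' table, no filter, detection on all 12 arrays, a replicate block, the mean of kept probes, the arrays of 1 line, and leaving out each array. RefSeq protein and probe sequences were not used here.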

Additional observations from a re-analysis of the deposited data

Results flagged for a closer look

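The response to siPRKCD differed between BT-549 and MDA-MB-468 cells, by the test of the difference in limma, for 10 of the named genes. Of all genes, 10.8% were called in either direction. EGR1, FOS and EPHA4 were named after their values were seen, so the count of 10 is not read as a result. ERRFI1, also named after its values were seen, was called as well (0.85, adjusted p = 0.0064) and is not among the 10. The 10 are each given as BT-549 minus MDA-MB-468 on the log2 scale. Among the feedback genes these were SPRY4 (1.94, adjusted p = 7.1e-06) and ETV5 (1.14, adjusted p = 0.0059). Among the ERK output genes they were CCND1 (1.34, adjusted p = 0.00054), and also EGR1 (1.05, adjusted p = 0.047) and FOS (1.25, adjusted p = 0.024), and in the other direction EPHA4 (-0.88, adjusted p = 0.0022). With median centring neither EGR1 (0.91, adjusted p = 0.24) nor FOS (1.15, adjusted p = 0.12) passed, and EGR1 was also lost in 8 and FOS in 6 of the 12 fits that left out 1 array. MAP3K5 (1.26), SLC1A3 (1.37) and PRDM8 (1.12), chosen for their likeness to SPRY4, carry its difference by that choice. The difference of 0.84 for PRKCD (adjusted p = 0.0032) did not pass with median centring (adjusted p = 0.060) or with neqc background correction (0.58, adjusted p = 0.30).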

How the results depend on the processing

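The 18 calls of the 9 feedback and output genes, over both responses, their difference and the level between lines, were set against 366 alternative values. No called value turned direction, and 9 of the 366 lost the call, for 6 of the 18. Many of the 366 could not move the log2 fold change. Leaving out an array of a group outside the comparison keeps it unchanged, as do the replicate blocks and the fits of 1 line. The few losses and the lack of reversals are therefore partly built in. Median centring left 1462, 1788 and 510 genes called in the MDA-MB-468 response, the BT-549 response and their difference (of 2991, 3030 and 1234), and 1 member in the difference. It took the share of higher calls from 43.7% to 21.8% in BT-549 cells and from 47.8% to 32.9% in the difference, and the BT-549 median of all genes to -0.06. With probes detected on all 12 arrays, DUSP4 and ETV4 were not tested, 2 members were called in MDA-MB-468 cells and 3 between the lines, and 616 genes in the difference. Fewer genes (7932) enter that fit, of which 2257 were called in MDA-MB-468 cells and 4816 between the lines. Leaving out 1 array gave 3 to 5 members called in MDA-MB-468 cells, 6 to 8 in BT-549 cells, 2 in the difference and 4 to 6 between the lines. Over all genes these fits called 2163 to 3176, 2090 to 3230, 862 to 1202 and 6566 to 7284 in the same order. With neqc, folds of dim genes were larger (log2 fold change of DUSP4 in MDA-MB-468 cells 1.02, of ETV4 1.02, of SPRY4 in BT-549 cells 3.08), and with the mean of kept probes DUSP6 in MDA-MB-468 cells came to 0.71 and SPRY4 in BT-549 cells to 1.32.

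With replicate number as a block over both lines, 5 members were called in MDA-MB-468 cells (SPRY2 at adjusted p = 0.022), 8 in BT-549 cells (ETV4 at 0.036), 2 in the difference and 6 between the lines. The block within MDA-MB-468 gave 4, 7, 2 and 6. Of all 11459 genes, the first block called 3306, 3357, 1470 and 7327 in the same order. The second block called 3393, 3390, 1535 and 7396. The counts between the lines are not read as a result about the members. Besides the calls of DUSP1 and SPRED2 given above, the block within MDA-MB-468 also called GRB2 in that line (adjusted p = 0.033). It changed no other call of the named genes that have alternative fits.

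Values that turned sign were uncalled ones near 0. With median centring the SPRED2 difference in response was -0.0667 and the SPRY2 level between lines 0.0406. Leaving out 1 array, the range was -0.0094 to 0.131 for SPRED1, -0.0028 to 0.144 for DUSP8, -0.101 to 0.227 for CCND1 and -0.0409 to 0.0703 for PRDM8 in MDA-MB-468 cells, -0.101 to 0.0511 for DUSP2 and -0.345 to 0.198 for EGR1 in BT-549 cells, -0.062 to 0.134 for the SPRED2 difference, and -0.175 to 0.311 for SPRY2 and -0.0942 to 0.0997 for SPRY4 between the lines. The cause was not tested.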
